A study of Arabidopsis thaliana with 16 samples.

Results

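NAC transcription factors were followed in rosette leaves of Arabidopsis plants that flew on the SJ-10 satellite and of plants kept on the ground. Probe sets of the ATH1 array were taken where the gene title or symbol held the letters ANAC, or where the title named a NAC domain or the phrase no apical meristem. This took 82 of 22810 probe sets. Of these, 80 named NAC genes, with 87 loci in all, 74 of them naming 1 locus and 6 naming several. The other 2 were probe sets of RRS1 (AT5G45260), an immune receptor, which were taken only because the bacterial species name in its title contains the letters searched, and they are left out of every NAC count. Several well-known NAC genes carry titles without these words and were counted apart.

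The leaves came from 8 groups with 2 arrays each. WT plants were Columbia (Col-0) and carried no transgene. FG plants were the homozygous offspring of a cross and carried FT and GFP, each driven by the heat-inducible promoter of a small heat shock protein gene. Plants grew under the LD (16 h light) or the SD (8 h light), in space (sp) or on the ground (gr), after 20 days of pre-culture. All SD plants of both genotypes, in space and on the ground, were heated at 37 °C for 1 h on days 2 and 3 of a flight of about 12 days, and no LD plant was, so daylength and heating cannot be told apart. Each treatment took 4 leaves from 2 plants, and the plants in space were harvested about 2 h after landing. Flight plants shared 1 growth unit and ground plants another, so spaceflight cannot be told apart from the unit, the landing or the harvest. Standard errors and p-values cover the spread between arrays only.

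NAC proteins are plant transcription factors that share a DNA-binding domain at the N-terminus and differ in the rest of the chain. In leaves they are best known as regulators of senescence and of the responses to drought, salt, abscisic acid and oxidative stress. Some promote ageing, such as ORE1, and others delay it, such as JUB1. A further group is held at a membrane by a C-terminal segment and enters the nucleus after cleavage, while the VND and NST proteins switch on the secondary wall of xylem vessels and fibres.

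Arrays differed in general measures that moved with the environment. The share of probe sets called present was 51.7 to 57.3% on the ground and 55.2 to 60.3% in space. Spike-in controls averaged 11.5 to 11.9 on the log2 scale on the ground and 11.1 to 11.3 in space, and the log2 difference between the 3′ and 5′ GAPDH probe sets was 1.12 to 1.75 and 0.117 to 1.14. The FT probe set had a present call on 0 of the 8 WT arrays, at a signal of 4.25 to 61.2, and on 6 of the 8 FG arrays, at 8.3 to 812 over all 8. The leaf mesophyll markers RCA, CAB3 and RBCS1A were present on every array. Their summed signal was 19628 to 50468 on the ground and 66725 to 75972 in space under the LD, and 10396 to 58960 and 44540 to 58895 under the SD. None of the 3 root markers passed the filter on low signals, and of the 4 flower markers only PI did. Of the guard cell markers, FMA was tested and called lower in space under the SD with the genotypes pooled, at -1.15 on the log2 scale, with signals of 56.4 to 267 on the ground and 49 to 186 in space over both daylengths, and MYB60 was not tested. Of the 3 leaf mesophyll markers, 1 was called higher in space under each daylength with the genotypes pooled. The part of these measures in the results was not tested. In whole leaves, fewer cells of a type and less RNA per cell cannot be told apart.

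Most NAC probe sets gave little signal in these leaves. Testing needed a signal over 75 in both replicates of 1 or more groups, which 37 of the 80 NAC probe sets (46.2%) and 14286 of all 22746 probe sets other than controls (62.8%) were. The signal is that of the MAS 5.0 algorithm, which the authors scaled to a trimmed mean of 500 on each array. Values below 75 were raised to 75. Among the 37, 26 had a present call on all 16 arrays. The other 43 had present calls on at most 5 arrays, and 28 of them on none. By this filter ANAC097 lay just inside, with a lower signal of 83.9 in its best group, and ANAC080 just outside with 70.3.

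The share tested varied with the list. All 13 senescence and stress members and all 8 membrane-tethered members were tested, but the membrane-tethered NTL8 (AT2G27300), outside the title rule, was not, at a highest signal of 49.8. ANAC103 (AT5G64060), which acts in the unfolded protein response, was untested too, with 0 present calls and a highest signal of 58.8. None of the 12 secondary wall and vascular members was, among them ANAC012 (SND1), the fibre wall regulator, whose highest signal was 37.5, and ANAC076 (VND2), a vessel regulator, at 32.7. Neither of the root cap members ANAC015 (BRN1) and ANAC070 (BRN2) was tested, with highest signals of 58.2 and 63. Of the NAC genes outside the title rule, the organ boundary genes CUC1, CUC2 and CUC3 were also untested, with highest signals of 32.2, 77.8 and 47.3.

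Under the LD, the NAC probe sets that were called in the fit as described were all lower in space. A probe set was called at an adjusted p (limma, Benjamini-Hochberg over all 14286 probe sets) under 0.05 with a difference of 2-fold or more. In WT, 8 of 37 NAC probe sets were called lower and 0 higher, against 5.79% of all probe sets called lower and 10.9% called higher. In FG, 2 were called lower and 0 higher, against 4.49% and 9.46%. With the genotypes pooled, 7 were called lower and 0 higher, against 7.24% and 13.5%. With the p left unadjusted (under 0.05, 2-fold or more), 1 NAC probe set was higher and 7 were lower in that pooled comparison. Shares of all probe sets called are given here and below for the adjusted p only. The median log2 fold change was -0.27 over the NAC probe sets and 0.09 over all in WT, and -0.17 and 0.08 with the genotypes pooled.

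**Figure D1:**
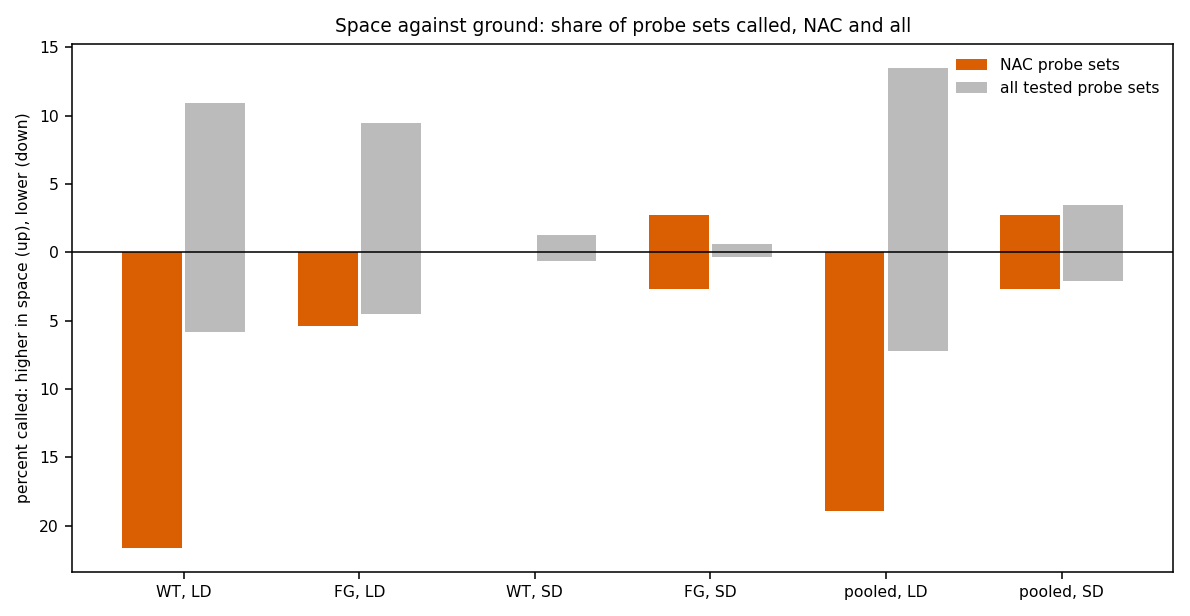
Percent of probe sets called (y axis, higher in space above 0 and lower in space below 0) in the space against ground comparisons (x axis), for the 37 tested NAC probe sets (orange) and all 14286 tested probe sets (grey). Under the LD the orange bars reach only below 0, to 21.6% in WT and 5.41% in FG, while the grey bars stand higher above 0 than below it.

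ANAC041 (AT2G33480) was lower in space under the LD in both genotypes. Its signal was 2430 and 2864 on the arrays of WT-LD-gr and 502 and 643 on those of WT-LD-sp. In FG the signals were 1918 and 1821 on the ground and 818 and 605 in space. Every LD array from the ground was above every LD array from space. The log2 fold change was -2.21 ± 0.29 (SE) in WT (limma, adjusted p = 0.001) and -1.41 ± 0.29 in FG (adjusted p = 0.0104). The WT call was kept whichever array was left out, and the FG call was lost without FG-LD-gr replicate 2 or FG-LD-sp replicate 2, with a range of -1.63 to -1.19 over the 16 omissions.

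AT3G12910, which the annotation names only as a NAC family gene, fell to or near the floor in space under the LD. WT-LD-gr had signals of 943 and 361, and WT-LD-sp of 37.9 and 26.7. FG-LD-gr had 543 and 1337, and FG-LD-sp had 63.3 and 104. Ground and space arrays did not overlap in either genotype. Neither WT space array was called present at a signal over the floor, so the change there was at least 7.78-fold lower (limma, adjusted p = 0.0204). In FG, where 1 of the 2 space arrays was held at the floor, it was at least 9.65-fold lower (adjusted p = 0.0164). Pooled over genotypes it was at least 8.66-fold lower (adjusted p = 0.00146), with 3 of the 4 space arrays held at the floor. The FG call was lost without FG-LD-gr replicate 2 or either array of FG-LD-sp, and the pooled call was kept whichever array was left out.

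The neighbouring genes ANAC046 and ANAC047 were both lower in space under the LD. ANAC046 (AT3G04060), which promotes chlorophyll breakdown, had signals of 508 and 496 in WT-LD-gr and 129 and 85.1 in WT-LD-sp. Its FG signals were 335 and 471 on the ground and 194 and 181 in space. ANAC047 (AT3G04070, SHYG), known for the upward bending of petioles under waterlogging, had 4269 and 9893 in WT-LD-gr and 840 and 830 in WT-LD-sp. Both genes had every LD space array below every LD ground array. For ANAC047 in FG the ground arrays gave 4557 and 6063 and the space arrays 3141 and 969, so that the space pair lay far apart. In WT the log2 fold changes were -2.26 ± 0.63 for ANAC046 (limma, adjusted p = 0.0311) and -2.96 ± 0.79 for ANAC047 (adjusted p = 0.0258). Pooled, they were -1.67 ± 0.45 (adjusted p = 0.0151) and -2.28 ± 0.56 (adjusted p = 0.0101). The FG values alone, -1.08 and -1.59, did not pass (adjusted p = 0.272 and 0.198). The pooled ANAC046 call was lost without WT-LD-sp replicate 2 or FG-LD-gr replicate 2 (range -1.82 to -1.52 over the omissions), and that of ANAC047 was kept whichever array was left out.

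ANAC083 (AT5G13180, VNI2), which restrains vessel formation and delays leaf senescence, was lower with a smaller change. WT-LD-gr had signals of 11807 and 7702, and WT-LD-sp had 4620 and 3131. For FG they were 6948 and 11947 on the ground and 4705 and 5377 in space. Again the ground and space arrays did not overlap. The log2 fold change was -1.33 ± 0.31 in WT (limma, adjusted p = 0.0159) and -1.09 ± 0.22 with the genotypes pooled (adjusted p = 0.00386), while that of FG alone, -0.86 ± 0.31, did not pass (adjusted p = 0.0871). The pooled call was lost without WT-LD-gr replicate 1, WT-LD-sp replicate 2 or FG-LD-gr replicate 2, with a range of -1.29 to -0.90. It was also lost with quantile normalization, and with scaling to the spike-in controls the value was -0.54.

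Among the membrane-tethered members, ANAC053 and ANAC016 were lower in WT under the LD. ANAC053 (AT3G10500, NTL4), which promotes reactive oxygen production and cell death under drought, had signals of 4203 and 2609 in WT-LD-gr and 1410 and 997 in WT-LD-sp. FG plants had 2625 and 2322 on the ground and 1560 and 1497 in space, without overlap. Its log2 fold change was -1.48 ± 0.38 in WT (limma, adjusted p = 0.0217) and -1.09 ± 0.27 pooled (adjusted p = 0.0102). The pooled call was lost without WT-LD-gr replicate 1 or WT-LD-sp replicate 2 (range -1.26 to -0.92), and with spike-in scaling (-0.53).

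ANAC016 (AT1G34180), a promoter of senescence and of chlorophyll loss in drought, had 597 and 704 in WT-LD-gr and 225 and 224 in WT-LD-sp. In FG, by contrast, the ground arrays at 522 and 706 overlapped the space arrays at 693 and 426. The log2 fold change was -1.53 ± 0.33 in WT (limma, adjusted p = 0.0113) and -0.16 ± 0.33 in FG (adjusted p = 0.794). These 2 values were not shown to differ, since the genotype by spaceflight interaction under the LD was 1.37 ± 0.47 (adjusted p = 0.66).

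ANAC084 (AT5G14000) was near the floor in space under the LD. Its signals were 353 and 544 in WT-LD-gr and 76.5 and 45.9 in WT-LD-sp. FG-LD-gr had 174 and 643, and FG-LD-sp had 128 and 66.3. No LD space array was called present at a signal over the floor. The change was at least 5.79-fold lower in WT (limma, adjusted p = 0.0287) and at least 4.44-fold lower with the genotypes pooled (adjusted p = 0.00705). The pooled call was kept in every setting tried, and the WT call was lost with no floor and with log2(signal + 32).

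Of the 8 WT calls under the LD, that of ANAC041 alone was kept whichever array was left out. Without WT-LD-sp replicate 2 the count was 1, without WT-LD-sp replicate 1 it was 2, without WT-LD-gr replicate 1 it was 3 and without WT-LD-gr replicate 2 it was 4. With no filter on low signals 3 of the 8 were called. The pooled count of 7 was 4 without WT-LD-sp replicate 2. Both FG calls were lost without replicate 2 of FG-LD-gr or FG-LD-sp, and that of AT3G12910 also without FG-LD-sp replicate 1. Without FG-LD-gr replicate 1, ANAC083 (-1.25) and ANAC084 (-2.71 or lower) were called lower in FG too. Without either array of WT-SD-gr, which is outside this comparison, the calls gained in FG were higher in space, ANAC013 (2.06) and ANAC003 (1.44). Genotype by spaceflight interactions called 0 of 37 NAC probe sets under the LD, against 0.035% of all, and with the p left unadjusted 1 was higher and 0 were lower. The lower number of calls in FG is therefore not shown to differ from that in WT.

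**Figure D2:**
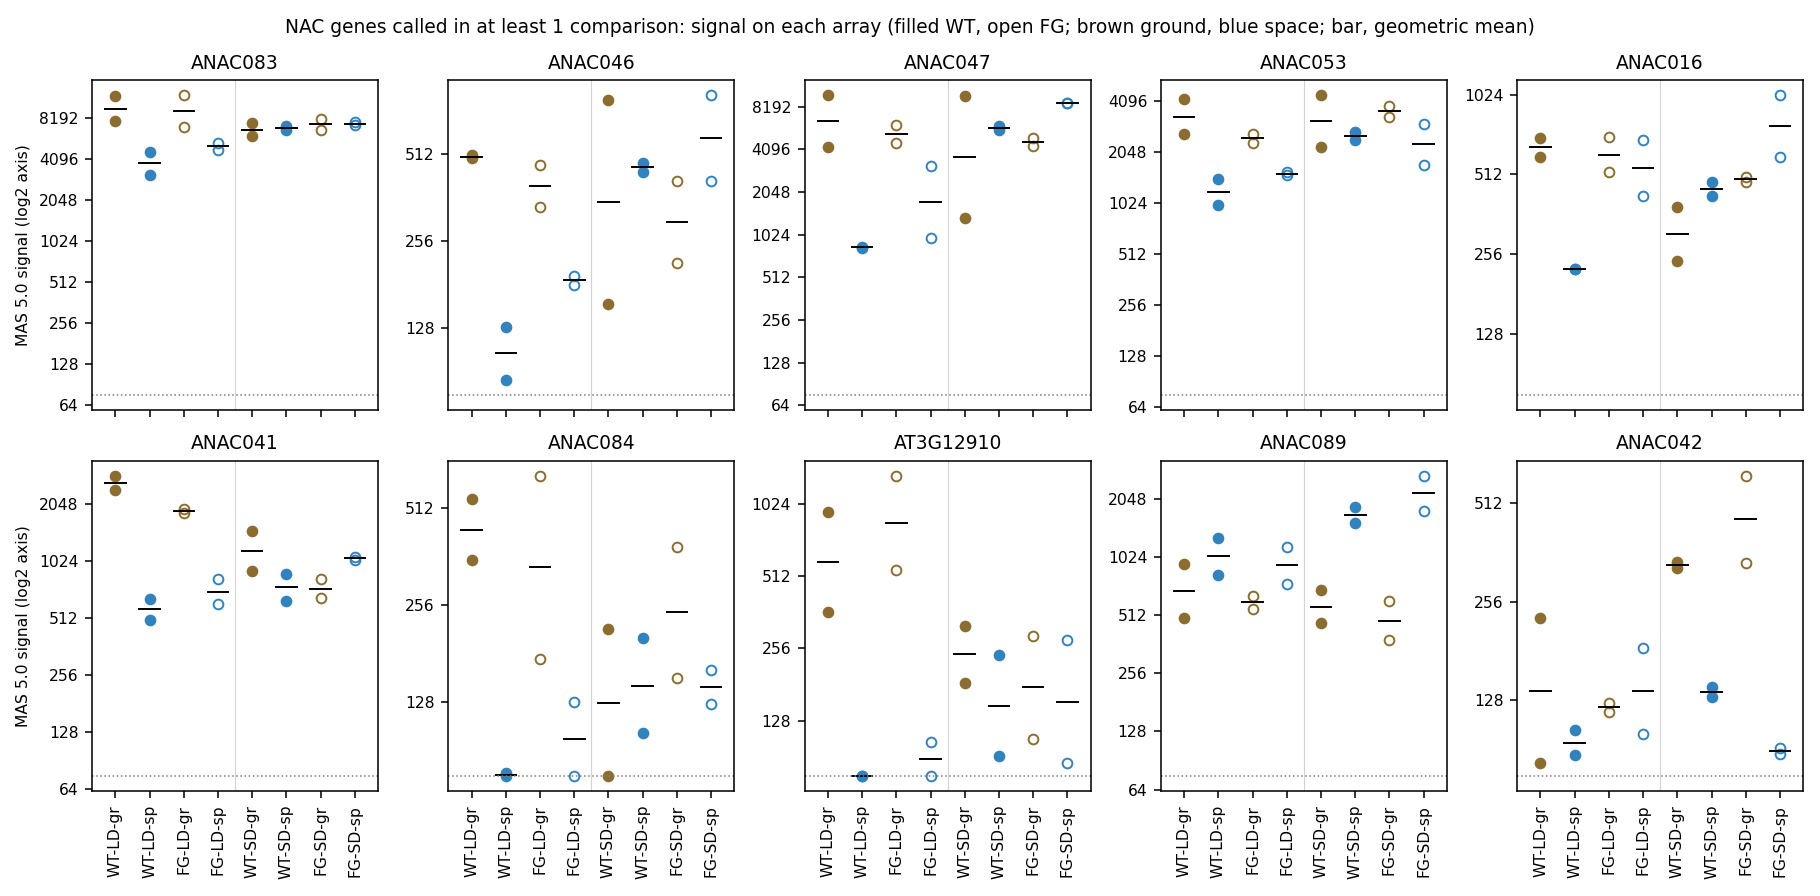
MAS 5.0 signal (y axis, log2 scale, values under 75 drawn at 75, dotted line) of the 10 NAC genes called in at least 1 comparison, for each of the 8 groups (x axis); points are arrays, 2 per group, filled for WT and open for FG, brown for ground and blue for space, and bars are geometric means. In the panels of ANAC041 and AT3G12910 the 4 LD space arrays lie below the 4 LD ground arrays, and in that of ANAC089 the 4 SD space arrays lie above the 4 SD ground arrays.

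In the fit as described, no member was called higher in space under the LD, but some leaned that way. ANAC102 (AT5G63790), a relative of ATAF1 known from the response to low oxygen, had a pooled log2 fold change of 0.96 ± 0.33 (limma, adjusted p = 0.0421), just under 2-fold. Its 4 ground arrays lay at 2329 to 3984 and its 4 space arrays at 5209 to 7314. ANAC013 (AT1G32870), a membrane-tethered regulator of the response to mitochondrial dysfunction, had 1.22 ± 0.49 (adjusted p = 0.0778), with ground arrays at 94.8 to 261 and space arrays at 288 to 519. Scaled to the spike-in controls, 7 NAC probe sets were called higher and 5 lower in the pooled LD comparison. How many of all probe sets were called with this scaling is not given here. That scaling moved the median of all probe sets to 0.57 and that of the NAC probe sets to 0.33, which left the NAC median below that of all. ANAC013 was called higher with array weights or only the arrays compared (limma, adjusted p = 0.0344 and 0.0095). The latter called ANAC090 (1.76, adjusted p = 0.0359), and quantile normalization called ANAC102 (1.07, adjusted p = 0.0225). Without WT-LD-gr replicate 1, ANAC102 (1.15) and ANAC032 (2.39) were called, as was ANAC013 without either array of WT-SD-gr. ANAC016 was called lower with median centring (-1.16), quantile normalization (-1.04) or without FG-LD-sp replicate 1. The 7 members called lower kept their direction under every scaling tried.

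Under the SD, the members that passed were others, and few. In WT, 0 of 37 NAC probe sets were called, against 0.616% of all probe sets called lower and 1.25% called higher. The smallest adjusted p of a NAC probe set was 0.0697 (limma), and with the p left unadjusted 2 were higher and 2 lower. In FG, 1 was called higher and 1 lower, against 0.609% and 0.308%. With the genotypes pooled the counts were again 1 and 1, against 3.43% and 2.08%. The pooled median log2 fold change was 0.50 over the NAC probe sets and 0.08 over all, and 24 of the 37 values were above 0.

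ANAC089 (AT5G22290), a membrane-tethered member known from cell death during endoplasmic reticulum stress, was higher in space under the SD. WT-SD-gr had signals of 686 and 466, and WT-SD-sp had 1851 and 1540. FG-SD-gr had 603 and 381, and FG-SD-sp had 2679 and 1777. All 4 space arrays were above all 4 ground arrays. The log2 fold change was 2.19 ± 0.40 in FG (limma, adjusted p = 0.0359) and 1.88 ± 0.28 pooled (adjusted p = 0.00472), and 1.58 ± 0.40 in WT, which did not pass (adjusted p = 0.0697). Under the LD its pooled value was 0.61 ± 0.28 (adjusted p = 0.119).

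ANAC042 (AT2G43000, JUB1), a brake on leaf ageing induced by hydrogen peroxide, was lower in space under the SD. The ground arrays of WT-SD-gr had signals of 325 and 339 and those of FG-SD-gr 337 and 621. In space the signals were 131 and 141 in WT-SD-sp and 91.6 and 87.4 in FG-SD-sp. The SD ground arrays thus stood above all other arrays of this probe set, whose LD signals were 82.5 to 228 on the ground and 86.8 to 185 in space. The log2 fold change was -2.35 ± 0.45 in FG (limma, adjusted p = 0.0395), -1.29 ± 0.45 in WT (adjusted p = 0.152) and -1.82 ± 0.32 pooled (adjusted p = 0.00845). SD against LD on the ground gave 1.59 ± 0.32 (adjusted p = 0.275), with no overlap of the arrays.

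Both pooled calls were kept whichever array was left out and under every other setting, at 1.72 to 2.44 for ANAC089 and -2.04 to -1.27 for ANAC042. Within FG alone they were not. The ANAC089 call was lost in 9 of the 16 omissions (1.86 to 2.52) and the ANAC042 call in 11 (-2.80 to -1.91). Those that ended both left out either array of WT-LD-sp, FG-LD-sp, WT-SD-sp or FG-SD-sp or replicate 2 of FG-SD-gr, and either array of FG-LD-gr ended that of ANAC042 too.

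**Figure D3:**
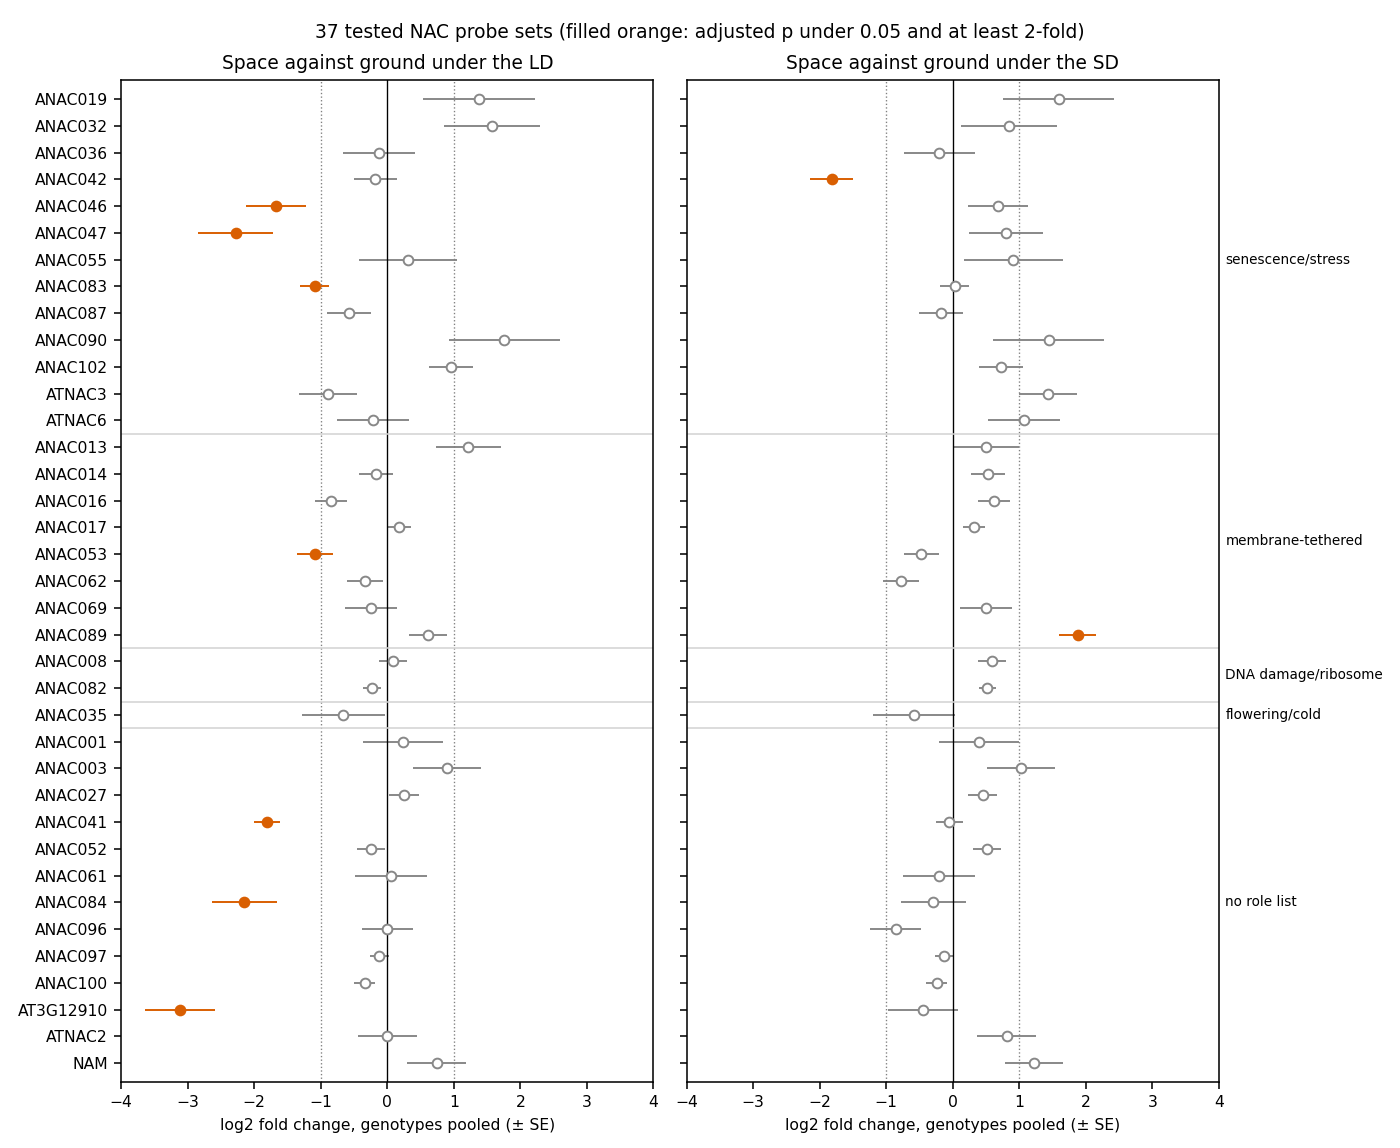
Log2 fold change of space against ground with the genotypes pooled (x axis, ± SE) for the 37 tested NAC probe sets (rows, grouped by role) under the LD (left) and the SD (right); filled orange points passed the test, and dotted lines mark 2-fold. The 7 orange points under the LD all lie left of 0, and the 2 under the SD are ANAC089 on the right and ANAC042 on the left.

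The 2 arrays of WT-SD-gr differed from each other in the NAC genes more often than those of any other group. With 2 arrays, it cannot be told which of them stood apart. Of 37 NAC probe sets, 21 differed at least 2-fold between the 2 arrays of WT-SD-gr, 16 of them higher in replicate 1 and 5 higher in replicate 2. That share of 56.8% compared with 25.4% over all probe sets of that group. In the other ground groups the NAC share was 24.3 to 32.4%, with 14.3 to 17.9% over all. In the space groups it was 2.7 to 13.5%, with 2.64 to 7.71% over all. Ground arrays thus varied more than space arrays, while the fit used 1 estimate of the spread for all 8 groups. Standard errors and p-values of space against ground rest on that shared estimate. The genes named here were chosen after their values were seen.

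ANAC019 (AT1G52890) and ANAC055 (AT3G15500), related factors that act in abscisic acid and jasmonate signalling, gave the widest gaps in that group. The signal of ANAC019 was 13623 in replicate 1 and 774 in replicate 2, and that of ANAC055 was 5579 and 268. ANAC032 (AT1G77450), an ATAF subfamily member of the stress response, had 4542 and 603. ATNAC6 (AT5G39610, ORE1), a central promoter of senescence, had 6081 and 839. For ANAC019, ANAC055 and ATNAC6, replicate 1 held the highest and replicate 2 the lowest of the 16 signals. The genes higher in replicate 2 included ANAC090 (AT5G22380), a repressor of salicylic acid responses in ageing leaves, at 343 and 4530, and ANAC035 (AT2G02450, LOV1), a regulator of flowering time and cold response, at 111 and 905. The mean log2 signal of 49 probe sets with a heat shock title or symbol was 9.77 on replicate 1, and 8.42 to 9.42 on the other 15 arrays. The part of this measure in the gaps was not tested.

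**Figure D4:**
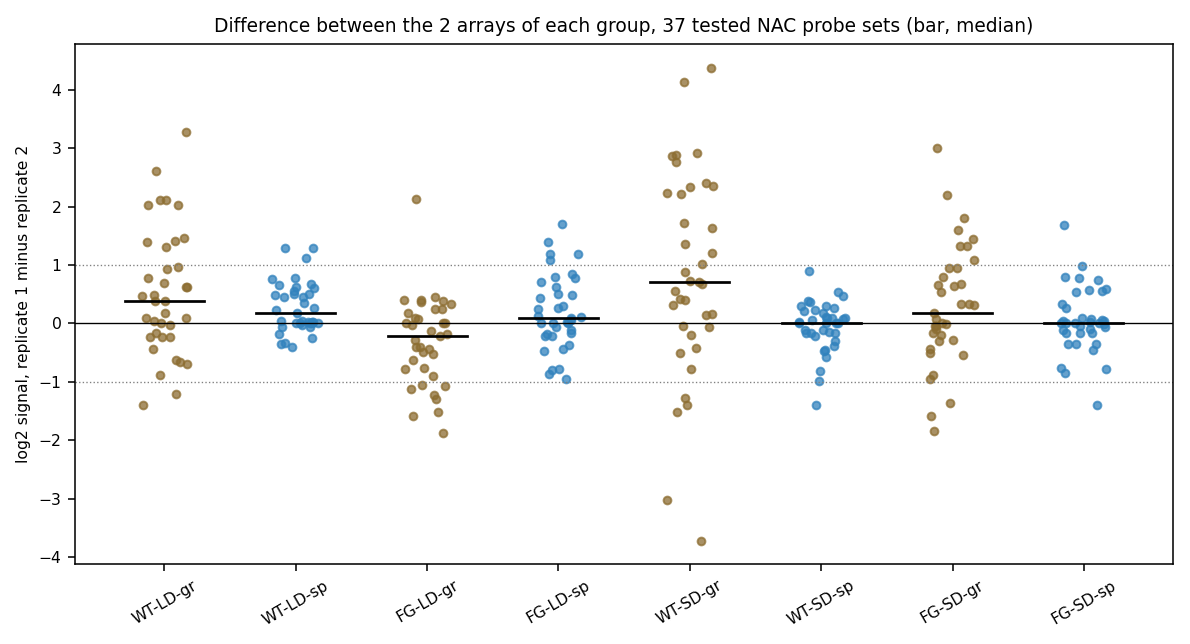
Difference in log2 signal between the 2 arrays of each group (y axis, replicate 1 minus replicate 2) for the 37 tested NAC probe sets, by group (x axis); brown points are ground groups, blue points space groups, bars are medians, and dotted lines mark 2-fold. WT-SD-gr spreads from -3.72 to 4.38, with 21 of its points at least 2-fold from 0, while in WT-SD-sp 1 point is.

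Which probe sets passed under the SD depended on the arrays of WT-SD-gr. Without replicate 1 of that group, more NAC probe sets were called higher in space in the pooled SD comparison. The share of all probe sets called there is not given here. The array kept in that fit, replicate 2, held the lowest of the 16 signals for ANAC019, ANAC055, ATNAC3 and ATNAC6. There, ANAC019 had a log2 fold change of 2.63 and ANAC055 one of 2.00. ATNAC3 (AT3G29035, ORS1), a senescence promoter related to ORE1, had 1.99, and ATNAC6 had 1.79. With all arrays the values were, in that order, 1.59 ± 0.84 (limma, adjusted p = 0.25), 0.91 ± 0.74 (adjusted p = 0.466), 1.43 ± 0.44 (adjusted p = 0.0672) and 1.07 ± 0.54 (adjusted p = 0.232). Without replicate 2 of that group, the pooled comparison gained ANAC096 instead, at -1.46 or lower (adjusted p = 6.03e-04). In WT alone, where 0 were called, leaving out replicate 1 called ANAC055 (3.03, adjusted p = 0.0475) and leaving out replicate 2 called ANAC096 (-2.40 or lower, adjusted p = 9.39e-04). With 1 array left out, WT-SD-gr was a single array, assumed to vary like the other groups. For ANAC096 that array, at a signal of 395, held the only present call of the 16, and the SD space arrays were all at the floor. Spike-in scaling of all 16 arrays called 15 higher and 1 lower, with a median of 1.05 over the NAC probe sets and 0.58 over all. The share of all probe sets called with that scaling is not given here.

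The responses to space differed between the daylengths for a few members. Taken as the SD response minus the LD response with the genotypes pooled, the interaction was called for 2 of 37 NAC probe sets, both positive, against 1.70% of all probe sets called positive and 2.66% called negative. ANAC041 had 1.76 ± 0.29 (limma, adjusted p = 0.00798). Its SD signals were 1476 and 908 in WT-SD-gr, 630 and 873 in WT-SD-sp, 817 and 649 in FG-SD-gr and 1038 and 1077 in FG-SD-sp, so that the pooled SD arrays overlapped (-0.05 ± 0.20, adjusted p = 0.911).

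ANAC016 had an interaction of 1.46 ± 0.33 (limma, adjusted p = 0.0336). Under the SD its signals were 384 and 242 in WT-SD-gr and 426 and 481 in WT-SD-sp, and 481 and 500 in FG-SD-gr and 595 and 1018 in FG-SD-sp. The space arrays were above the ground arrays within each genotype, yet the pooled SD value of 0.62 ± 0.24 did not pass (adjusted p = 0.121). The ANAC041 interaction was kept whichever array was left out. That of ANAC016 was lost in 10 of the 16 omissions (range 1.27 to 1.66), which were those of WT-LD-gr replicate 2, FG-LD-gr replicate 2, FG-LD-sp replicate 2, FG-SD-sp replicate 2 and both arrays of WT-LD-sp, WT-SD-sp and FG-SD-gr.

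The remaining members called under the LD did not reach the threshold for a difference between daylengths. Their SD signals were as follows for ANAC047: 9851 and 1340 in WT-SD-gr, 5983 and 5594 in WT-SD-sp, 4344 and 4899 in FG-SD-gr and 8777 and 8705 in FG-SD-sp. Its interaction was 3.07 ± 0.79 (limma, adjusted p = 0.053), and 3.79 (adjusted p = 0.00506) without WT-SD-gr replicate 1. It was called too without WT-SD-gr replicate 2 (2.35, adjusted p = 0.037), WT-LD-gr replicate 1 (3.38, adjusted p = 0.0461) or FG-LD-sp replicate 1 (adjusted p = 0.0496), and with array weights, quantile normalization or spike-in scaling (adjusted p = 0.0331 to 0.0478). For ANAC046 the SD signals were 790 and 155, 478 and 444, 414 and 216, and 818 and 413 in the same order, and the interaction was 2.35 ± 0.63 (adjusted p = 0.0619), or 2.94 (adjusted p = 0.00505) without that array. It was called too without WT-SD-gr replicate 2 (1.76, adjusted p = 0.04), and with array weights, spike-in scaling or quantile normalization (adjusted p = 0.0374 to 0.0476). AT3G12910 had 2.66 or more, given its LD space arrays at the floor. ANAC083 had 1.12 ± 0.31, and both had an adjusted p of 0.0703. AT3G12910 was called with log2(signal + 32) (2.75, adjusted p = 0.0461) and without FG-SD-sp replicate 2 (3.08 or more). ANAC083 was called without FG-LD-gr replicate 1 (1.32). The interaction gained members without either array of WT-SD-gr, replicate 1 of each other ground group, FG-LD-sp replicate 1 or FG-SD-sp replicate 2. Each of these fits left 1 array in a group, and the share of all probe sets called there is not given here.

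Daylength itself was compared within each environment. On the ground, 0 of 37 NAC probe sets differed between SD and LD, with a smallest adjusted p of 0.161 (limma), against 0.021% of all probe sets called lower under the SD and 0% called higher. With the p left unadjusted, 1 NAC probe set was higher and 3 were lower. On the ground 1 was called without WT-LD-gr replicate 1 (ANAC042, 1.96), WT-SD-gr replicate 1 (ANAC041, -1.45) or WT-SD-gr replicate 2 (ANAC096, 1.46 or higher, resting on 1 array of WT-SD-gr). In space, 2 were called higher under the SD and 0 lower, against 2.89% and 6.23% of all. These were ANAC047 (2.56 ± 0.56, adjusted p = 0.0129) and ANAC046 (1.88 ± 0.45, adjusted p = 0.0185), and in both every SD space array was above every LD space array. The ANAC047 call was lost without replicate 2 of WT-LD-sp or of FG-LD-sp (range 2.13 to 2.98). That of ANAC046 was lost without these or FG-LD-sp replicate 1, either array of WT-SD-sp or FG-SD-sp replicate 1 (1.64 to 2.13). The median over NAC probe sets was 0.46 and over all -0.02. Centring each array on its median raised these medians to 0.70 and 0.16, and the count in space to 8 higher. The share of all probe sets called with that centring is not given here. These comparisons share arrays with those of space against ground.

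FG and WT did not differ in any NAC probe set that passed the test. The 4 comparisons of FG with WT, under each daylength and in each environment, called 0 of 37. Of all probe sets, 0.028% were lower in FG under the LD on the ground, 0.007% were lower under the LD in space, and 0.014% were higher under the SD in each environment. The genotype by spaceflight interaction under the SD also called 0, against 0% of all, and with the p left unadjusted 1 was positive and 0 were negative. Without WT-SD-gr replicate 2, ANAC096 was called in FG against WT under the SD on the ground (-1.87, limma, adjusted p = 0.00573) and in that interaction (1.87, adjusted p = 0.0461). Its signal was 395 in WT-SD-gr replicate 1, 3.4 in replicate 2, and 106 and 110 in FG-SD-gr, so that both values rest on 1 array.

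Neighbouring members were also looked at in pairs. In the order of protein-coding genes of the RefSeq annotation (TAIR10.1), 11 pairs of NAC loci with probe sets of their own stood next to each other, and in 5 both were tested. ANAC046 and ANAC047 were both called lower in space under the LD. ANAC053 was called there at -1.09 and its neighbour ANAC052, a probe set naming 2 loci, had -0.25 ± 0.21 (limma, adjusted p = 0.4). ANAC016 had a pooled value of -0.85 ± 0.24 (adjusted p = 0.0183), under 2-fold, and ANAC017 (AT1G34190), a membrane-tethered regulator of mitochondrial retrograde signalling, had 0.18 ± 0.17 (adjusted p = 0.43). The pairs NAM with ANAC019 and ANAC055 with ATNAC2 held no call under either daylength. Whether neighbours differed from each other was not tested.

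By role, the senescence and stress members held 3 of the pooled LD calls (ANAC046, ANAC047, ANAC083) and 1 of the pooled SD calls (ANAC042), all lower in space, among 13 tested. Of all probe sets, 7.24% were called lower under the LD and 2.08% under the SD. The median log2 fold change of these 13 was -0.18 under the LD and 0.80 under the SD, against 0.08 over all probe sets under each. The direction of these calls did not follow one role, as ANAC046 promotes and ANAC083 and ANAC042 delay senescence. The 8 membrane-tethered members held ANAC053 under the LD and ANAC089 under the SD, with medians of -0.20 and 0.50, where 7.24% of all were called lower under the LD and 3.43% higher under the SD. ANAC008 (AT1G25580, SOG1), the master regulator of the response to DNA damage, had 0.08 ± 0.21 under the LD (limma, adjusted p = 0.809) and 0.59 ± 0.21 under the SD (adjusted p = 0.106). ANAC082 (AT5G09330), which acts in the response to ribosome stress, had -0.23 ± 0.13 (adjusted p = 0.203) and 0.52 ± 0.13 (adjusted p = 0.0361), the latter under 2-fold. ANAC035 (LOV1) had -0.66 ± 0.62 (adjusted p = 0.435) and -0.58 ± 0.62 (adjusted p = 0.594).

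Of NAC genes outside the title rule, NAP (AT1G69490), a promoter of senescence, was higher in space under the SD. Its pooled log2 fold change was 2.65 ± 0.58 (limma, adjusted p = 0.0199), against 1.04 ± 0.58 (adjusted p = 0.186) under the LD. Its 16 signals lay between 1050 and 10962 on the ground and between 8273 and 18660 in space. ATAF1 (AT1G01720) had 0.90 ± 0.46 and 0.73 ± 0.46, neither of which passed (adjusted p = 0.153 and 0.332). The membrane-tethered TIP (AT5G24590) was called lower in FG under the LD, at -1.43 ± 0.44 (adjusted p = 0.0479). The RRS1 probe sets, at 263 to 697 and 243 to 375 over the 16 arrays, had pooled values between -0.27 and -0.06 in space against ground, with adjusted p of 0.487 to 0.854.

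Genes known from other work as targets of NAC factors were taken from a list of 29 probe sets, of which 22 were tested. Under the LD with the genotypes pooled, 8 were called lower in space and 2 higher, against the 7.24% and 13.5% of all probe sets, with a median of -0.61. The lower ones included 3 genes of chlorophyll breakdown, NYC1 (chlorophyll b reductase, -1.80 ± 0.45, limma, adjusted p = 0.0108), NYE1 (the Mg-dechelatase of the stay-green trait, -1.35 ± 0.43, adjusted p = 0.0321) and ACD1 (pheophorbide a oxygenase, -1.13 ± 0.31, adjusted p = 0.0175). The 5 others were AAO3, which makes abscisic acid, the stress protease gene ERD1, the trehalase gene TRE1, the brassinosteroid gene DWF4 and the mitochondrial gene BCS1, with values of -1.76 to -1.02. The 2 that rose were UGT74E2 (1.38 ± 0.42, adjusted p = 0.0268) and AT2G21640 (1.19 ± 0.39, adjusted p = 0.035). Along with BCS1, which was lower, and AOX1A (0.55 ± 0.43, adjusted p = 0.348), they are known from the response to mitochondrial dysfunction. UGT74E2 had 2.65 ± 0.59 in FG (adjusted p = 0.0154) and 0.11 ± 0.59 in WT (adjusted p = 0.925), and these were not shown to differ (interaction 2.54 ± 0.84, adjusted p = 0.643).

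Under the SD, 1 of the 22 targets was called lower and 0 higher, against 2.08% and 3.43% of all probe sets, and the median was 0.30. It was BCS1, at -1.86 ± 0.30 (limma, adjusted p = 0.00691). In space, 4 were higher under the SD than under the LD and 0 lower, against 2.89% and 6.23% of all: NYC1 (1.85 ± 0.45, adjusted p = 0.0206), ACD1 (1.04 ± 0.31, adjusted p = 0.0464), TRE1 (2.35 ± 0.25, adjusted p = 2.30e-04) and HAI1, a phosphatase of abscisic acid signalling (2.36 ± 0.64, adjusted p = 0.0317). Of the known JUB1 targets, DWF4 had -0.64 ± 0.29 (adjusted p = 0.175) and DREB2A -0.41 ± 0.37 (adjusted p = 0.518) under the SD, where ANAC042 was lower. The target genes have other regulators too, and no link between a NAC gene and a target was tested.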

How the data were processed

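Leaf RNA of 16 samples was hybridised to ATH1 arrays. The deposited values are log2 signals that the authors made with the MAS 5.0 algorithm in R, scaling each array to a trimmed mean of 500, with a detection call beside each. They named a floor of 75, and deposited values below it were raised to 75 here. The sources used here do not give the package version, and the array annotation names no genome build, so no coordinates are printed. Probe sets whose signal exceeded 75 in both replicates of 1 or more groups were tested with limma 3.58.1 in R 4.3.3, with 1 mean per group over all 16 arrays. With 2 arrays per group, their number limits the precision. Pooled comparisons average WT and FG, and interactions are differences of responses. Members, role lists and targets were chosen with earlier results of these data known, and 1 NAC gene is not reported here. Signals on each array are given for members called in a single space against ground comparison or an interaction. All 87 loci were found in RefSeq. The fit was tested on simulated data. Alternatives were no floor, log2(signal + 32), no filter, a present-call filter, median centring, quantile normalization, spike-in scaling, only the arrays compared, array weights, a replicate block, the methods' t-test and leaving out each array.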

Additional observations from a re-analysis of the deposited data

Results flagged for a closer look

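The response to space differed between daylengths for ANAC041, where the SD response minus the LD response was 1.76 on the log2 scale, and for ANAC016, where it was 1.46 (limma, interaction term). Among the NAC targets it differed for NYC1 (2.84), TRE1 (1.97) and ERD1 (1.37), each higher under the SD relative to the LD. SD plants were heated and LD plants were not, so the 2 conditions cannot be told apart.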

How the results depend on the processing

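Counts of called NAC probe sets, both directions together, depended on several settings. With no filter, space against ground called 3 in WT and 1 in FG under the LD (8 and 2 with the filter) and 0 in FG under the SD (2 with it), SD against LD in space called 1 and the daylength interaction 1 (2 each). Using only the arrays compared gave 0 for each genotype under the LD and 0 in FG under the SD, each with fewer arrays in the fit, and 4 for SD against LD in space. With no floor, FG under the SD had 0 and the daylength interaction 1. Spike-in scaling gave 8 in WT and 5 in FG under the SD, 12 under the LD and 16 under the SD pooled, and 5 for the daylength interaction. Median centring gave 1 in FG under the SD and 8 for SD against LD in space. Quantile normalization gave 1 in FG under the SD and 4 for the daylength interaction. Array weights gave 1 in FG under the SD and 4 for SD against LD in space. The methods' t-test, unadjusted, called 6 (WT) and 5 (FG) under the LD, 3 and 4 under the SD, and 1 in FG against WT under the LD in space. After Benjamini-Hochberg it called 0 in each.

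The replicate number as a block gave 1 in WT (ANAC089, 1.58, limma, adjusted p = 0.028) and 1 in FG under the SD and 4 for the daylength interaction, 8 and 2 under the LD in these genotypes, and 8 (LD) and 2 (SD) with the genotypes pooled. It also called ANAC032 under the LD pooled (1.57, adjusted p = 0.0429) and the daylength interactions of ANAC046 (2.35, adjusted p = 0.0421) and ANAC089 (1.27, adjusted p = 0.0287). The replicate numbers were not taken to pair the arrays, since no label states a shared batch. The replicate differences of 2 groups correlated between -0.278 and 0.502 over 28 pairs of groups, with 14 over 0.1 and 8 under -0.1. Whether some groups shared a processing step was not tested.

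Leaving out 1 array gave 1 to 9 (WT) and 0 to 4 (FG) under the LD, 0 to 1 and 0 to 2 under the SD, 4 to 8 and 2 to 11 pooled under the LD and SD, 0 to 1 for SD against LD on the ground, 0 to 4 in space, 1 to 6 for the daylength interaction, 0 to 1 for the genotype interaction under the SD and 0 to 1 for FG against WT under the SD on the ground. Of 25 called values, 0 reversed under any setting, 8 kept the call whichever array was left out and 7 kept it throughout. The cause of these shifts was not tested.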
